A study of Mus musculus with 4 samples.

Results

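The Enpp genes encode the ectonucleotide pyrophosphatase/phosphodiesterase family, and 6 of them, Enpp1 to Enpp6, were followed here by gene symbol among the 35869 rows of a mouse expression table. The table holds RNA sequencing values of oligodendrocytes, the glia that wrap brain axons in myelin. The cells came from the cortex of mice at postnatal day 5 and were sorted as positive for both O4 and GalC, surface lipids of late precursors and maturing oligodendrocytes. The mutant group (KO, from its label Zfp488 KO) comprised 2 libraries of mice with a knock-in allele on both copies of Zfp488, and the control group comprised 2 wild-type (WT) libraries. Strain, sex, the design of the allele and any pooling of animals are not given in the labels, nor do they tie each library to an animal of its own, so the spread between libraries may be technical and a p-value measures no more than that spread. The genes were chosen with their KO and WT values known, so those values are given below as a description and not as a test.

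Enpp enzymes sit on the cell surface or are secreted, and they cut phosphodiester and pyrophosphate bonds outside the cell. Enpp1 and Enpp3 release pyrophosphate from ATP and other nucleotides, and Enpp1 also degrades the immune messenger cGAMP. Enpp2, also called autotaxin, is a secreted lysophospholipase D that makes the signalling lipid lysophosphatidic acid (LPA), and oligodendrocytes are a known source of it in brain. Enpp4 acts on diadenosine polyphosphates, and Enpp5 is a little studied membrane protein. Enpp6 is anchored to the membrane by a lipid and removes phosphocholine from choline-containing lipids, and its transcript is used as a marker of newly forming oligodendrocytes.

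The active site shows how the members are related. A stretch of 39 coding bases around the codon of the catalytic nucleophile is printed for each member, read 5′ to 3′ on the coding strand from GENCODE M21 transcripts (GRCm38), with that codon in capitals.
Enpp1: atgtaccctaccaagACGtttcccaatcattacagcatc
Enpp2: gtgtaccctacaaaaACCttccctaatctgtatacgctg
Enpp3: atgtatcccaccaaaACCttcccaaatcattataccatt
Enpp4: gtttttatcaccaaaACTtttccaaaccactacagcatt
Enpp5: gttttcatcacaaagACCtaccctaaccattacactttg
Enpp6: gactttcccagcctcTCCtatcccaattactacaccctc
The codon specifies threonine in Enpp1 to Enpp5 and serine in Enpp6, at codon 238 of Enpp1, 209 of Enpp2, 205 of Enpp3, 73 of Enpp4, 72 of Enpp5 and 71 of Enpp6. Of the 39 bases, 12 were alike in all 6 members, and Enpp1 and Enpp3 shared the most of any pair, 30. Each stretch lies within a single coding exon, for Enpp3 at chr10:24809860-24809898 on the minus strand and for Enpp6 at chr8:46987166-46987204 on the plus strand.

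The rest of the coding sequence divides the family by length. Enpp1, Enpp2 and Enpp3 had coding sequences of 2718, 2742 and 2622 bases in 25, 26 and 25 exons, against 1368, 1431 and 1320 bases in 4, 4 and 8 exons for Enpp4, Enpp5 and Enpp6. In pairwise gapped alignments, identity of aligned bases was 61.8% between Enpp1 and Enpp2, 61.9% between Enpp1 and Enpp3, and 62.3% between Enpp2 and Enpp3. It was 61.2% between Enpp4 and Enpp5, 61.7% between Enpp4 and Enpp6, and 58.8% between Enpp5 and Enpp6. In these pairs of similar length, at least 84.1% of the longer sequence was aligned. Every pair of a longer and a shorter member had a higher identity, up to 71.9% between Enpp3 and Enpp6. In those pairs at most 53.4% of the longer sequence was aligned. The identities therefore cannot be compared across lengths and do not rank how closely the members are related. No run of 31 bases was shared by annotated transcripts of any pair of members (0 in each of the pairs), so an exact read of that length cannot belong to more than 1 member.

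Values are FPKM, fragments scaled to transcript length and to sequencing depth, so levels of different genes can be set side by side. Summed over all rows they came to 311846 and 320581 in KO 1 and KO 2, and to 336530 and 341145 in WT 1 and WT 2. The commonest step of low values was taken as 1 read. On that basis 1 FPKM on 1 kb of transcript stood for about 40.1 and 38.7 reads in KO 1 and KO 2 and for 37.4 and 44.5 reads in WT 1 and WT 2. The bin of that step held only 15.8% and 14.7% of the rows used in KO and 13.3% and 15.8% in WT. Some values, such as Enpp1 in WT 1, lay below 1 read, so read counts are rough. The oligodendrocyte lineage factors were high in every library, with Olig2 at 454.1 and 453.0 FPKM in KO and 390.2 and 399.5 FPKM in WT and Sox10 at 242.4 FPKM or more in each. Zfp488 itself was at 4.82 and 4.11 FPKM in KO and at 6.61 and 5.29 FPKM in WT, so both KO libraries lay lower but kept reads of the gene. In the limma fit over the 10754 rows with at least 1 FPKM in at least 2 libraries, 0 rows passed at an adjusted p under 0.05 (0.0%), the smallest adjusted p being 0.859, and 608 (5.65%) had an unadjusted p under 0.05. No single-gene difference named below passed that test.

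Oligodendrocytes of both genotypes carried mainly Enpp6, Enpp2 and Enpp5, and Enpp3 was read in the KO libraries and listed at 0 in the WT libraries. Of the 6 members, 4 reached the level needed for the fit, and Enpp3 reached it only through the KO libraries, while Enpp1 and Enpp4 did not reach it. Both KO libraries lay above both WT libraries for 1 of the 4 (Enpp3), a pattern found in 16.6% of all tested rows, and below them for 1 (Enpp6), a pattern found in 18.3%. The genes were chosen from this same contrast, so nothing is read from that count.

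**Figure D1:**
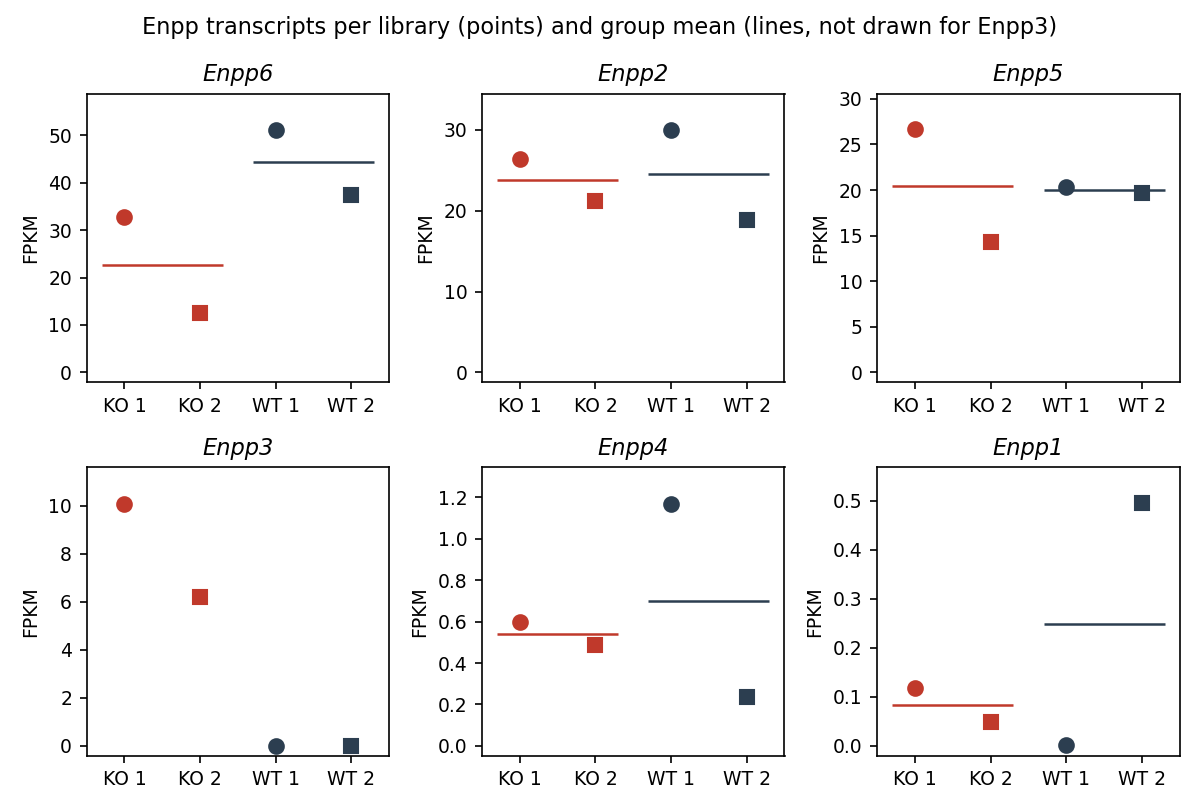
FPKM of each Enpp gene in the 4 libraries, KO in red and WT in dark blue, with circles for libraries numbered 1, squares for those numbered 2, and horizontal lines at the mean of 2 libraries, left out for Enpp3. Enpp6 is lower in both KO libraries, Enpp3 is listed at 0 in both WT libraries, and the groups overlap for the other 4 genes.

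Enpp6, the choline phosphodiesterase of newly forming oligodendrocytes, was the most abundant member in WT and lower in both KO libraries. It was at 32.7 and 12.4 FPKM in KO 1 and KO 2 and at 51.1 and 37.4 FPKM in WT 1 and WT 2. The groups did not overlap, but KO 1 lay closer to WT 2 than to KO 2. On the scale of FPKM + 1, KO over WT gave a log2 fold change of -1.07 (SE 0.49). It rested in part on KO 2, the lowest library: without KO 2 the log2 fold change was -0.41, and without KO 1 it was -1.74. In bulk RNA of sorted cells, fewer cells expressing a gene and less RNA per cell cannot be told apart.

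Enpp6 was set against transcripts of successive stages of the lineage within each library. Against Mbp, a main protein of compact myelin, the ratio of Enpp6 to Mbp FPKM was 0.503 and 0.419 in KO and 0.496 and 0.505 in WT. Against Gpr17, a receptor of committed precursors that was itself at 181.6 and 76.4 FPKM in KO and at 165.4 and 87.8 FPKM in WT, the ratio was 0.180 and 0.163 in KO and 0.309 and 0.426 in WT. Against Pdgfra, the growth factor receptor of precursors, at 40.2 and 42.5 FPKM in KO and at 18.5 and 26.8 FPKM in WT, it was 0.813 and 0.292 in KO and 2.77 and 1.40 in WT. Against Cnp, a myelin enzyme, it was 0.106 and 0.0825 in KO and 0.116 and 0.143 in WT, and against Pllp, a myelin membrane protein, 0.137 and 0.0776 in KO and 0.144 and 0.187 in WT. Of these 5 ratios the Mbp ratio overlapped between genotypes and the other 4 were lower in both KO libraries. Mbp had the closest profile to Enpp6 of all the myelin genes, and Cnp and Pllp are given because they had the highest mean FPKM of that list.

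Likeness was measured as the Euclidean distance between 4-library profiles of log2(FPKM + 1), each centred on its own mean, where a smaller distance is a closer profile. The median distance to Enpp6 was 0.844 over 16 tested myelin genes, 0.918 over 12 tested premyelinating genes, 1.61 over 13 tested precursor genes, and 1.59 over all other tested rows. Among all tested rows the closest were Tcirg1, a subunit of the vacuolar proton pump (distance 0.057), LOC102639173 (0.132), Otud1, a deubiquitinating enzyme (0.174), and Mbp (0.185). Mbp was at 65.004 and 29.6 FPKM in KO and at 103.0 and 74.1 FPKM in WT, and Tcirg1 at 2.31 and 0.327 FPKM in KO and at 4.14 and 2.96 FPKM in WT. These profiles share 4 libraries and are a description of them. Over all tested rows, both KO values lay below both WT values for 18.3% and above for 16.6%, and the median log2 fold change was 0.0. Of the 16 myelin genes, 7 had both KO values below both WT values and 1 had both above, with a median log2 fold change of -0.78. Mog, a late myelin surface protein, was at 5.43 and 0.758 FPKM in KO and at 17.0 and 7.77 FPKM in WT. For 12 premyelinating genes the counts were 2 below, near the share over all rows, and 0 above, with a median of -0.46, and Bcas1 was at 44.4 and 21.9 FPKM in KO and at 66.2 and 34.8 FPKM in WT. For 13 precursor genes they were 0 below and 8 above, with a median of 0.27, and Cspg4 was at 42.1 and 33.0 FPKM in KO and at 25.2 and 27.9 FPKM in WT.

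**Figure D2:**
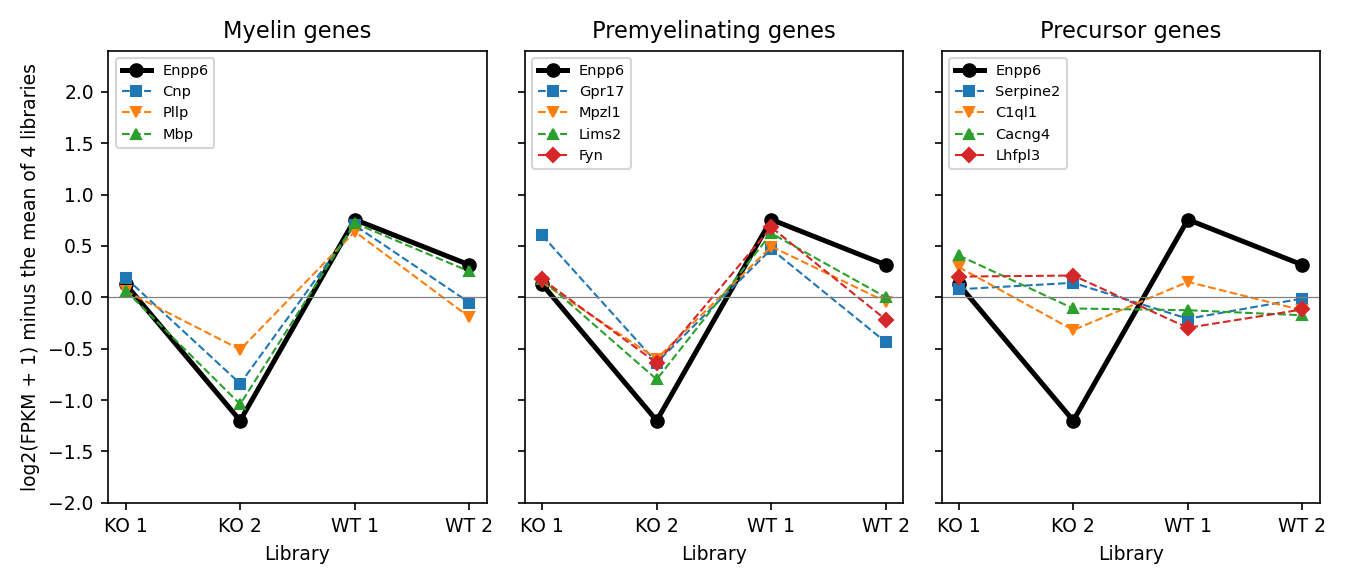
Profile of Enpp6 (black) over the 4 libraries as log2(FPKM + 1) minus the mean of the 4, beside 3 myelin, 4 premyelinating and 4 precursor genes taken from those with the highest mean FPKM among the tested genes of each list. Mbp lies close to Enpp6 in every library, and the 4 precursor genes move less than Enpp6 does.

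Enpp6 lies on chromosome 8 (GRCm38, 46986887 to 47096762, plus strand), where GENCODE places the antisense genes Gm45600 and 4930579M01Rik within it. As the strand setting is not given, reads from such genes cannot be told apart from those of Enpp6. The nearest RefSeq gene with a row was Irf2, an interferon regulatory factor 91.7 kb away, at 1.09 and 0.496 FPKM in KO and 1.56 and 0.428 FPKM in WT, with overlapping groups. The 250 bases before the RefSeq start are shown for Enpp6 and Enpp3, the members whose groups did not overlap. Capitals mark CANNTG (the E-box core read by helix-loop-helix factors such as Olig2), ACAAT (a core read by Sox factors) and CCAAT, each sought on both strands, as were TATAAA and GGGCGG.
Enpp6 (GRCm38.p6, chr8:46986637-46986886, plus strand): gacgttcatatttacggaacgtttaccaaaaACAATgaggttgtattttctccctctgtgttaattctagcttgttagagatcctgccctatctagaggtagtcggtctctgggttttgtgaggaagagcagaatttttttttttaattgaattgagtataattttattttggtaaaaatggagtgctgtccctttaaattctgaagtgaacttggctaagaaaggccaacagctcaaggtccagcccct
Enpp3 (GRCm38.p6, chr10:24836196-24836445, minus strand): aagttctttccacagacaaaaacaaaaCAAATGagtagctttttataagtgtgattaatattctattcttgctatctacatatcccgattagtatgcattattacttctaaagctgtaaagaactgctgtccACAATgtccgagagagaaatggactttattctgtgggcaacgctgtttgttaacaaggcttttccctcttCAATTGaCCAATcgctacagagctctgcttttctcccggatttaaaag
The Enpp6 window held 1 ACAAT, starting at position -219 from the start, with 0 matches to the other motifs. The Enpp3 window held 2 CANNTG at -223 and -48, 1 ACAAT at -118 1 CCAAT at -41 and, on the opposite strand, 1 TATAAA at -209, with no overlap between matches. Of 32851 RefSeq windows of this length, 66.2% held CANNTG, 27.7% ACAAT, 33.8% CCAAT, 12.4% TATAAA and 32.7% GGGCGG. CpG dinucleotides numbered 4 in the Enpp6 and 5 in the Enpp3 window, near the median of 6 over all windows. Fewer were held by 37.8% and 44.4% of all windows. The windows of Enpp1 and Enpp4 held 17 and 31, and none was found for Enpp2 and Enpp5. A match of this kind is a description of letters.

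Enpp3, a surface enzyme that degrades nucleotides and marks mast cells and basophils as CD203c, was read in KO libraries and listed at 0 in WT libraries. It was at 10.1 and 6.21 FPKM in KO 1 and KO 2 and at 0 and 0 FPKM in WT 1 and WT 2. With a longest annotated transcript of 4253 bases, the KO values correspond to about 1723 and 1023 reads, and a single read would have been worth about 0.0063 and 0.0053 FPKM in WT 1 and WT 2. No fold is given against a group listed at 0. Of all 35869 rows, Enpp3 was the 1 row listed at 0 in both WT libraries with at least 5 FPKM in both KO libraries. The reverse was shown by 2 rows, the small nucleolar RNAs Snora52 and Snora81. The cut of 5 FPKM was set with the Enpp3 values known, and the count depends on it. Mir7231 (5.74 and 2.51 FPKM in KO) and Snora78 (4.62 and 2.60 FPKM in KO) were also at 0 in both WT libraries. Nothing is read from the count. A further 12972 rows are listed at 0 in all 4 libraries, which does not bear on a row at 0 in the WT libraries alone. The program behind the values is not given, so a 0 can be a failed estimate, and this was not tested.

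Markers of mast cells and basophils were listed after the Enpp3 values were seen. Of the 8 markers, 5 were at 0 in all libraries, among them Cpa3, Ms4a2 and Fcer1a, and 0 reached the fit. Their summed level was 0.123 and 0.751 FPKM in KO and 0 and 0.01 FPKM in WT, most of it from the tryptase gene Tpsb2, at 0.067 and 0.751 FPKM in KO and 0 and 0.01 FPKM in WT. Of the 4 neuronal markers that could be tested, 0 passed. Both KO libraries lay above for 3 (Snap25, Stmn2 and Dlx2), against 16.6% of all tested rows, and Tubb3 overlapped. Syt1, below the level of the fit, was at 0.225 and 0.251 FPKM in KO and at 0.316 and 0.354 FPKM in WT. The sum over all 10 neuronal markers overlapped, at 27.5 and 45.1 FPKM in KO and 15.8 and 31.9 FPKM in WT, with Rbfox3 and Slc17a7 at 0.084 FPKM or less in every library. The part of either set of markers in the Enpp3 result was not tested. In the rat, Enpp3 is known as a surface antigen of a subset of glial precursors.

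The profiles closest to Enpp3 were those of other rows near 0 in WT. They were Cachd1 (distance 0.826), the microRNA row Mir7231 (0.907), the zinc finger gene Zfp773 (0.936) and the small nucleolar RNA row Snora78 (0.991). Cachd1, an auxiliary calcium channel subunit, was at 5.15 and 4.12 FPKM in KO and at 0.005 and 0.147 FPKM in WT. These distances are larger than those found around Enpp6.

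Enpp3 lies beside Enpp1 on chromosome 10, both on the minus strand, with 60.2 kb between their GENCODE gene bodies (24772406 to 24842823 and 24637914 to 24712159). Enpp1, the pyrophosphate-generating enzyme, did not share its pattern. Enpp1 was at 0.119 and 0.049 FPKM in KO and at 0.002 and 0.495 FPKM in WT, near 0 throughout and with overlapping groups. The WT 1 value is below what 1 read is worth on its longest transcript, about 0.0039 FPKM. On the other side of Enpp3, Med23, a subunit of the Mediator complex 33.8 kb away, was at 2.25 and 1.42 FPKM in KO and at 0.883 and 0.716 FPKM in WT (log2 fold change 0.64, SE 0.38), so both KO libraries lay above both WT libraries there as well. Ctgf, a matrix-associated growth factor on the far side of Enpp1, was at 0.74 and 0 FPKM in KO and at 0.235 and 4.08 FPKM in WT.

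Enpp2, the LPA-producing autotaxin, was abundant and did not separate the genotypes. It was at 26.4 and 21.2 FPKM in KO and at 30.0 and 18.9 FPKM in WT, with a log2 fold change of -0.01 (SE 0.31). The larger contrast was between library numbers, with both libraries numbered 1 above both numbered 2. Its sign depended on the libraries and the scaling: it was 0.31 without WT 1, 0.14 without KO 2 and 0.089 after rescaling to TPM, and -0.33 without WT 2. Choroid plexus is another known source of autotaxin, and the marker Ttr was at 11.9 and 122.4 FPKM in KO and at 4.97 and 94.6 FPKM in WT, so Ttr was highest in the libraries where Enpp2 was lowest. The summed endothelial markers followed the same numbers, at 0.035 and 27.9 FPKM in KO and 0.002 and 29.3 FPKM in WT. Most of that sum was Cldn5, at 0.035 and 26.3 FPKM in KO and 0 and 26.8 FPKM in WT, while Pecam1 was at 0.002 FPKM or less throughout. Of the 6 choroid and ependymal markers, Aqp1 was at 0 in all libraries and Kl and Clic6 at 0.007 FPKM or less. Their part in the Enpp2 values was not tested. Gm26684, a noncoding gene that overlaps the start of Enpp2 on the opposite strand, was at 0.073 and 0.127 FPKM in KO and 0.134 and 0.073 FPKM in WT.

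**Figure D3:**
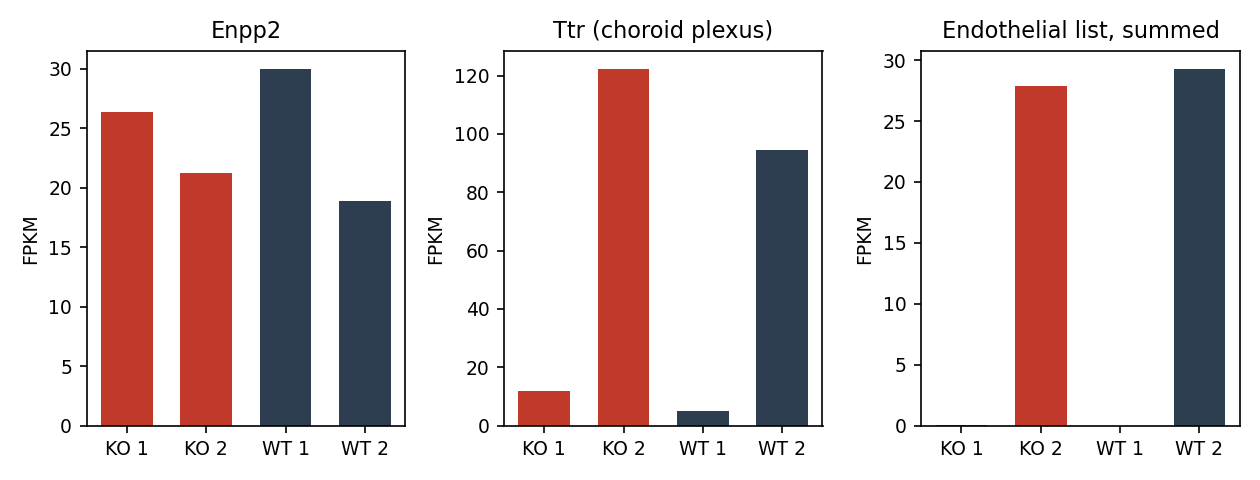
FPKM of Enpp2, of the choroid plexus marker Ttr and of 7 endothelial markers summed, in KO (red) and WT (dark blue) libraries. Ttr and the endothelial sum, most of it Cldn5, are high in KO 2 and WT 2, where Enpp2 is lower than in KO 1 and WT 1.

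Receptors and phosphatases of LPA are the genes around autotaxin. Of 13 genes of LPA signalling with a row, 8 were tested, 0 passed, both KO libraries lay above for 3 and below for 1, against 16.6% and 18.3% of all tested rows, and the median log2 fold change was -0.07. Plpp3, a surface phosphatase that inactivates LPA, was by far the most abundant of them, at 147.6 and 161.7 FPKM in KO and 95.004 and 138.4 FPKM in WT (log2 fold change 0.43, SE 0.22). Plpp1, a related phosphatase, was at 13.3 and 15.4 FPKM in KO and 13.2 and 8.55 FPKM in WT, with KO 1 and WT 1 nearly equal. The LPA receptor gene Lpar3 was at 3.51 and 4.01 FPKM in KO and at 0.011 and 1.94 FPKM in WT. Lpar1, the LPA receptor linked to oligodendrocytes, was low at 0.946 and 0.148 FPKM in KO and 1.03 and 1.17 FPKM in WT. Thus Lpar3 and Lpar1 lay on opposite sides of their WT values.

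Enpp5 and Enpp4 are neighbours in tail-to-tail orientation on chromosome 17, 9.7 kb apart, and differed in level. Enpp5 was at 26.6 and 14.3 FPKM in KO and at 20.4 and 19.7 FPKM in WT, so the WT values lay between the KO values. Its log2 fold change was -0.03 (SE 0.36), with 0.39 without KO 2 and -0.46 without KO 1. Enpp4, the diadenosine polyphosphate hydrolase, was at 0.596 and 0.488 FPKM in KO and at 1.17 and 0.235 FPKM in WT, with the KO values between the WT values. The outer neighbours were nearly silent, with Clic5, an intracellular chloride channel protein, at 0.006 FPKM or less and the noncoding Gm34857 at 0 in every library. Enpp7, the alkaline sphingomyelinase of the same family, was also listed at 0 in every library.

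The order of levels was Enpp6, Enpp2, Enpp5, Enpp4, Enpp1 and Enpp3 by mean FPKM in WT, and Enpp2, Enpp6, Enpp5, Enpp3, Enpp4 and Enpp1 in KO. In KO the values of Enpp2, Enpp6 and Enpp5 overlapped, and in WT those of Enpp2 and Enpp5, and of Enpp4 and Enpp1, did, so these neighbours do not differ beyond their spread. Summed over the 6 members the level was 96.5 and 54.8 FPKM in KO and 102.7 and 76.8 FPKM in WT, with overlapping groups. The share of Enpp6 in that sum was 33.9% and 22.7% in KO and 49.8% and 48.7% in WT. Enpp3 made up 10.5% and 11.3% in KO. Enpp6 per Enpp2 was 1.24 and 0.585 in KO and 1.7 and 1.98 in WT, and Enpp6 per Enpp5 was 1.23 and 0.867 in KO and 2.51 and 1.90 in WT. Such ratios within a library do not depend on scaling between libraries, and both were lower in both KO libraries, while Enpp2 per Enpp5 overlapped (0.989 and 1.48 in KO, 1.47 and 0.958 in WT).

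**Figure D4:**
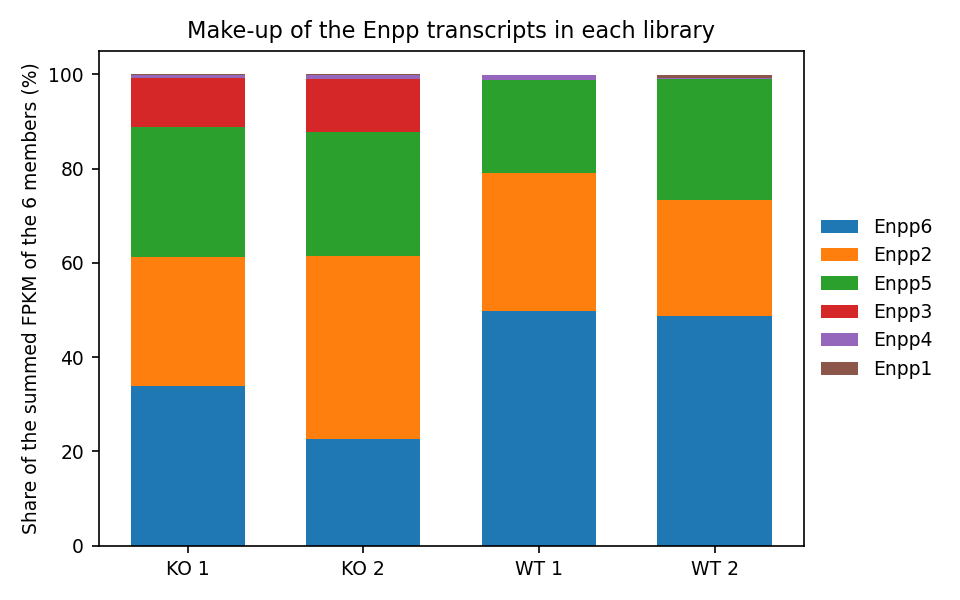
Share of each Enpp gene in the summed FPKM of the 6 members, for KO and WT libraries. Enpp6 takes 33.9% and 22.7% in KO and 49.8% and 48.7% in WT, and Enpp3 appears in the KO bars alone.

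Genes that supply or handle the choline lipids on which Enpp6 acts were well represented. Of 30 genes, 24 were tested, 0 passed, both KO libraries lay above for 7 and below for 3, and the median log2 fold change was 0.08. Over all tested rows, both KO libraries lay above for 16.6% and below for 18.3%, and groups did not overlap for 34.9%. Slc44a2, a choline transporter-like protein, was at 7.55 and 6.90 FPKM in KO and at 1.87 and 2.65 FPKM in WT (log2 fold change 1.34, SE 0.34). Chpt1, which completes phosphatidylcholine, was at 22.8 and 20.3 FPKM in KO and 14.6 and 16.0 FPKM in WT, and Pcyt1a, which catalyses the preceding step, at 5.07 and 7.73 FPKM in KO and 4.25 and 4.72 FPKM in WT. Pemt, which methylates phosphatidylethanolamine, was at 1.71 and 0.005 FPKM in KO and at 2.10 and 3.23 FPKM in WT. The most abundant were Mfsd2a, a transporter of lysophosphatidylcholine, at 211.9 and 183.0 FPKM in KO and 180.5 and 180.4 FPKM in WT, and Gde1, a glycerophosphodiester phosphodiesterase, at 172.4 and 146.1 FPKM in KO and 203.0 and 209.1 FPKM in WT. Gde1 thus lay below its WT values, as Enpp6 did, with a log2 fold change of -0.37 (SE 0.15).

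The ectonucleotidase list held 15 other genes for enzymes that act on nucleotides and nucleosides, along with the nucleoside transporter genes Slc29a1 and Slc29a2 among the 15. Of these, 11 were tested and 0 passed. In both KO libraries 1 lay above and 2 below, against 16.6% and 18.3% of all tested rows, so the counts are near that background, and the median was -0.03. Entpd4, a nucleoside diphosphatase inside the cell, was at 17.0 and 11.1 FPKM in KO and at 9.70 and 7.22 FPKM in WT (0.66, SE 0.34). Ada, adenosine deaminase, was at 1.37 and 2.53 FPKM in KO and at 2.56 and 4.58 FPKM in WT, and Entpd5, a nucleoside diphosphatase of the endoplasmic reticulum, at 1.27 and 1.69 FPKM in KO and 1.85 and 2.03 FPKM in WT. Entpd2, a surface ATPase, varied most in WT, at 10.7 and 9.63 FPKM in KO and 3.70 and 22.0 FPKM in WT.

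Of 18 genes for purine receptors, which sense the nucleotides and adenosine outside the cell, 8 were tested, 0 passed, 2 lay above and 0 below in both KO libraries, against 16.6% and 18.3% of all tested rows, and the median was 0.25. The ADP receptor genes P2ry13 and P2ry1 were at 2.29 and 2.32 FPKM and at 2.18 and 2.62 FPKM in KO, against 0 and 1.01 FPKM and 1.88 and 0 FPKM in WT. P2ry13 is also known from microglia. The 8 tested microglial markers all overlapped, but so did most tested rows, as groups did not overlap for 34.9%. Sums over all 9 microglial markers were 51.1 and 136.0 FPKM in KO and 52.0 and 120.0 FPKM in WT. The part of microglia in the P2ry13 values was not tested. The most abundant receptor was Adora2b, for adenosine, at 45.8 and 17.9 FPKM in KO and 30.2 and 31.1 FPKM in WT, and P2rx4, an ATP-gated channel, was at 7.72 and 3.04 FPKM in KO and 7.15 and 3.09 FPKM in WT.

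The handling of pyrophosphate and of cGAMP, products and substrates of Enpp1, was compared last. Of 9 phosphate and pyrophosphate genes with a row, 7 were tested, 0 passed, 1 lay above and 0 below, against 16.6% and 18.3% of all tested rows, and the median was 0.20. Xpr1, a phosphate exporter, was at 15.3 and 11.036 FPKM in KO and at 7.57 and 7.39 FPKM in WT (0.72, SE 0.30). The soluble pyrophosphatases Ppa1, of the cytosol, and Ppa2, of mitochondria, were at 67.8 and 98.6 FPKM and at 28.0 and 22.7 FPKM in KO, against 83.0 and 140.0 FPKM and 22.7 and 25.2 FPKM in WT. Of 6 genes of cGAMP sensing with a row, 3 were tested and 0 passed, and the groups did not overlap for any of the 3, with a median of -0.66. Trex1, an exonuclease that clears cytosolic DNA, was at 2.86 and 1.18 FPKM in KO and at 5.50 and 3.19 FPKM in WT. The kinase gene Tbk1 was at 3.34 and 2.04 FPKM in KO and 5.68 and 3.94 FPKM in WT, and its target Irf3 at 5.68 and 4.52 FPKM in KO and 5.97 and 8.86 FPKM in WT. Over all tested rows the groups did not overlap for 34.9%, and both KO libraries lay below, as for these 3, for 18.3%. The list members below the level of the fit did not share the lower KO values. Mb21d1 was at 0.458 and 0.049 FPKM in KO and at 0.04 and 0 FPKM in WT. Ikbke was at 0.001 and 0.365 FPKM in KO and at 0 in both WT libraries. Tmem173 overlapped, at 0.017 and 1.13 FPKM in KO and 0 and 0.66 FPKM in WT.

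**Figure D5:**
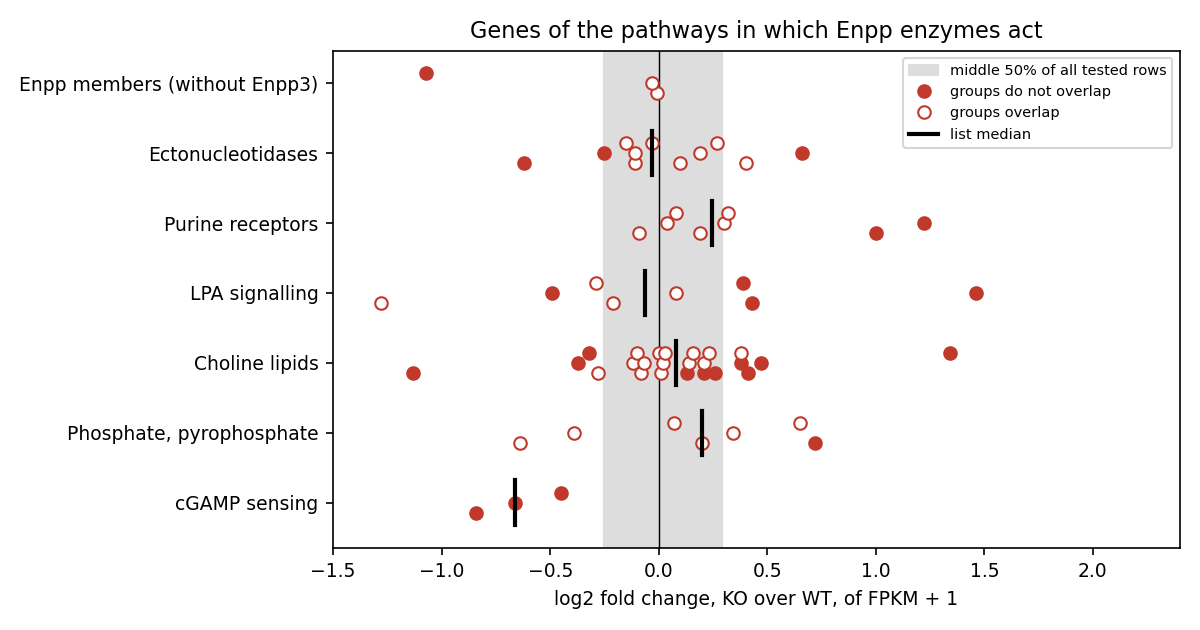
Log2 fold change of KO over WT on the scale of FPKM + 1 for each tested gene of the pathway lists, with filled circles where the groups do not overlap, black bars at list medians, and a grey band for the middle 50% of all tested rows (-0.25 to 0.29). Enpp6 at -1.07 lies outside the band and Enpp2 and Enpp5 lie near 0. The 3 tested cGAMP sensing genes lie to the left of the band, and the untested ones of that list are not drawn.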

How the data were processed

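The deposited table gives FPKM per gene row for 4 libraries, 1 column each, to 3 decimals. The submitters' processing notes name TopHat (no version) and the mm10 build, and the sources used here do not name the FPKM program, annotation, strand setting or filters. Values were analysed as log2(FPKM + 1), which understates changes of low genes. Rows reaching 1 FPKM in 2 or more libraries were fitted with limma 3.58.1 in R 4.3.3 (genotype, mean-variance trend, Benjamini-Hochberg adjustment over all tested rows, threshold 0.05), a step tested on simulated data. FPKM are not counts, so no count model was used; the worth of 1 read was taken from the commonest step of low values times transcript length in genes with 1 annotated transcript, and is approximate because the lengths behind the FPKM are not given. Sequences and loci came from GENCODE M21 (GRCm38) and RefSeq (GRCm38.p6), with alignments by Biopython 1.88; the longest coding sequence of each gene was used, and promoter windows were found for 4 of the 6 members. Without a library, the lone sample of its group is assumed to vary like the other group. The members, lists, tests and alternatives were chosen with earlier results of these data known. From each pathway list the text names up to 4 tested genes whose groups do not overlap, by size of the log2 fold change, and the 2 with the highest mean FPKM. Also named are nearest neighbours of each locus and the 4 closest profiles for members spanning at least 1 log2 unit.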

Additional observations from a re-analysis of the deposited data

How the results depend on the processing

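Over 12 alternatives (pseudocounts 0.1 and 0.5, 2 other filters, rescaling to TPM, quantile normalization, no mean-variance trend, a replicate block and leaving out each library), 0 rows passed limma's adjusted threshold under each. Enpp6 stayed below 0 under all 12, between -1.74 and -0.41, the extremes coming from leaving out a KO library. Enpp2 turned to 0.089 after rescaling to TPM and Enpp5 to 0.063. That step divides each library by its summed FPKM, which was lower in both KO libraries, and so raises KO over WT for rows in general. Without single libraries Enpp2 lay between -0.33 and 0.31 and Enpp5 between -0.46 and 0.39, and the cause of that spread was not tested. The count of members with KO libraries above WT was 0 when at least 1 FPKM was required in all 4 libraries, which removes Enpp3, and between 1 and 2 without single libraries, as was the count below. The fit included Enpp3, but its fold is not given because both WT libraries are listed at 0. List medians without single libraries lay between -0.20 and 0.092 for ectonucleotidases, 0.25 and 0.51 for purine receptors, -0.26 and 0.32 for LPA signalling, -0.0073 and 0.24 for choline lipids, -0.065 and 0.22 for phosphate and pyrophosphate, and -0.92 and -0.41 for cGAMP sensing. The purine receptor median was 0.37 and 0.32 with pseudocounts 0.1 and 0.5, 0.0062 without a filter, 0.076 with the stricter filter and 0.45 after rescaling to TPM. The stricter filter gave 0.24 for LPA signalling and no filter gave -0.13 for cGAMP sensing. With the library number as a replicate block, Enpp6 was -1.07 (SE 0.28) and 0 rows passed; deviations of same-numbered libraries correlated at 0.289 across rows, but the labels give the numbers no shared source, so they are not taken as pairs.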
